A study of Mus musculus with 15 samples.

Results

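Levels of 10 genes of tissue macrophages were followed through development of the mouse secondary palate: Cx3cr1, Csf1r, Adgre1, Mrc1, Lyve1, Cd68, C1qa, C1qb, C1qc and F13a1. These are 10 of the 54232 genes counted, and all 10 passed the filter on low counts that kept 22151 genes for testing. They were listed by name as macrophage markers. Cx3cr1 was chosen by its CPM in these libraries, which was lower at P0 than at E16.5, so that difference is given as a description with no test. The question was whether Cx3cr1 fell together with the other 9 genes or apart from them.

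RNA of the secondary palate, the shelf between mouth and nasal cavity, was sequenced in bulk from wild-type mice. The 5 ages were each day of embryonic development from E13.5 through E16.5, then P0 at birth, with 3 libraries for each and 15 in all. Each library held the palates of 3 pooled embryos, so a p-value measures the spread between pools. Nothing but age separated the groups by label.

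Macrophages are phagocytes that settle in most tissues before birth, from yolk sac and fetal liver precursors, and depend on signalling through the CSF1 receptor. Cx3cr1 encodes the receptor of fractalkine (Cx3cl1), a chemokine held on the surface of cells. It is high in microglia and in early embryonic macrophages, and in many other tissues macrophages are known to lower it as they mature. Bone-resorbing osteoclasts come from the same lineage and also depend on Csf1r.

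The total count of a library lay between 21.47 and 69.02 M (1e6), with the lower totals at E16.5 and P0. Levels are given as CPM (counts scaled to a total of 1e6 after TMM adjustment). The fewest counts of any of the 10 genes in a library was 97, for Lyve1. Ttr, a gene of the choroid plexus, exceeded 100 CPM in E14.5 replicates 1 and 3 and P0 replicate 2 (1220, 673 and 362 CPM), so counts of changed genes are also given without these 3 libraries. This does not remove every library with brain transcripts. Neurod6, a brain gene, held 45.3 CPM in E13.5 replicate 2, 22.7 CPM in E14.5 replicate 2 and 29 CPM in E16.5 replicate 3. At P0 it held 0.194, 1.49 and 1.18 CPM. The part of brain tissue in the level of Cx3cr1 was not tested. The 3 E16.5 libraries and P0 replicate 2 held at most 0.457 CPM summed over 4 genes of the Y chromosome, against 86.2 and 130 CPM in P0 replicates 1 and 3. Stage and sex of the pools can therefore not be told apart in part of the comparison of P0 with E16.5.

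Cx3cr1 had its highest mean levels at E15.5 and E16.5 and its lowest at P0. Its gene (ENSMUSG00000052336.7) spans chr9:119901616-120069879 on the minus strand of GRCm38. At E13.5 its libraries held 12, 9.03 and 12.2 CPM, and at E14.5 they held 13.7, 15.2 and 17 CPM. At E15.5 the values were 22.8, 22.0 and 17.8 CPM, and at E16.5 they were 21.9, 17.7 and 19.6 CPM. At P0 they were 7.02, 4.60 and 5.83 CPM, from at least 134 counts each. Every P0 library lay below every library of the other 4 stages, and the libraries of E15.5 and E16.5 overlapped.

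The stage means of Cx3cr1 were 11.1 ± 1.79 CPM (SD, n = 3) at E13.5 and 15.3 ± 1.67 CPM at E14.5. They were 20.9 ± 2.66 CPM at E15.5 and 19.8 ± 2.14 CPM at E16.5, and the P0 mean was 5.82 ± 1.21 CPM. Over the last interval, E16.5 to P0, the fitted log2 fold change was -1.76 (SE 0.19), a level 3.39-fold lower. The P0 library without Y transcripts was the lowest of its stage, at 4.60 CPM, and those with them, at 7.02 and 5.83 CPM, were also below all E16.5 libraries. Mitochondrial genes took 2.83% of counts in P0 replicate 2 and 1.95% in P0 replicate 3, against 1.49% in P0 replicate 1 and at most 1.77% in the libraries of the other stages. The part of this in the level of Cx3cr1 was not tested. In bulk tissue, fewer cells of a type and less RNA per cell cannot be told apart.

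**Figure D1:**
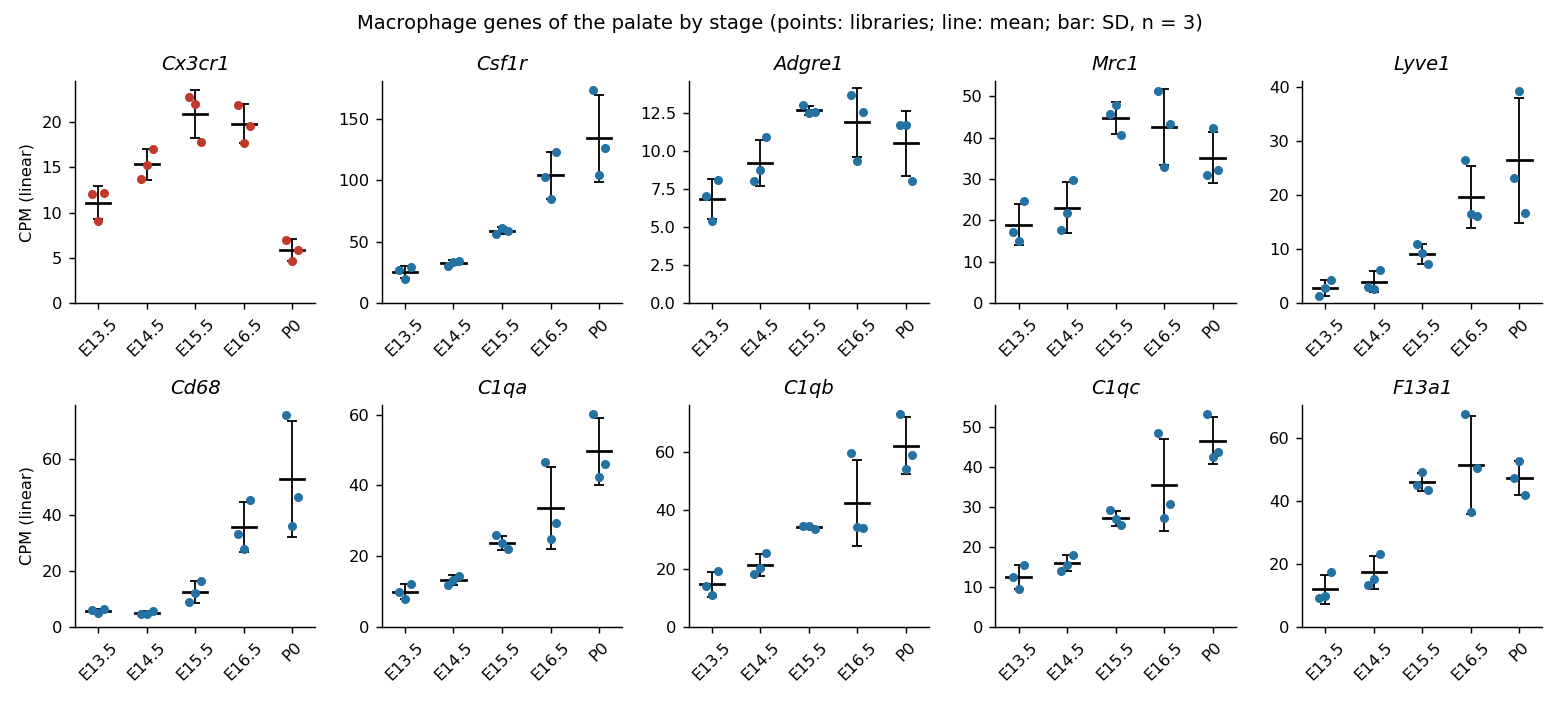
Level of each of the 10 genes (CPM, linear axis from 0) at 5 stages; points are libraries, horizontal lines are means and bars are SD (n = 3). Cx3cr1 (red) has its lowest libraries at P0, between 4.60 and 7.02 CPM, while the P0 libraries of the other 9 genes overlap those of E16.5.

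Csf1r, the receptor through which macrophages receive their survival signal, was at its highest at P0. Csf1r (ENSMUSG00000024621.15, chr18:61105572-61132149, plus strand) held 26.7, 19.6 and 29.1 CPM at E13.5 and 30.6, 33.8 and 34.6 CPM at E14.5. It held 56.0, 61.5 and 59.1 CPM at E15.5, 103, 84.8 and 123 CPM at E16.5, and 173, 104 and 126 CPM at P0. Each embryonic stage lay wholly above the one before, and only the libraries of E16.5 and P0 overlapped. Its log2 fold change from E16.5 to P0 was 0.37 (SE 0.19, adjusted p = 0.484, edgeR's quasi-likelihood test, as for every adjusted p here unless DESeq2 is named). Of its exon bases 871 are shared with a gene on the opposite strand, and counting used strand.

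Adgre1 encodes F4/80, a surface protein used to mark mouse macrophages. Adgre1 (ENSMUSG00000004730.14, chr17:57358686-57483529, plus strand) held 13.7, 9.32 and 12.6 CPM at E16.5 and 11.7, 11.7 and 8.05 CPM at P0. These libraries overlapped, with a log2 fold change of -0.18 (SE 0.21, adjusted p = 0.780). Through the embryonic stages Adgre1 kept nearly the same ratio to Cx3cr1, whose CPM was 1.63 ± 0.104, 1.67 ± 0.0973, 1.64 ± 0.195 and 1.69 ± 0.184 times that of Adgre1 from E13.5 to E16.5 (SD, n = 3). At P0 the ratio was 0.572 ± 0.168, and its highest library, 0.724, was below the lowest of any other stage, 1.42.

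Mrc1 encodes the mannose receptor, and Lyve1 a hyaluronan receptor of perivascular macrophages and of lymphatic vessels. Mrc1 (ENSMUSG00000026712.3, chr2:14229392-14332057, plus strand) held 51.4, 33.0 and 43.4 CPM at E16.5 and 31.1, 42.3 and 32.2 CPM at P0, and these overlapped (log2 fold change -0.27, SE 0.24, adjusted p = 0.683). Lyve1 (ENSMUSG00000030787.4, chr7:110850607-110863239, minus strand) held 26.5, 16.5 and 16.2 CPM at E16.5 and 23.3, 39.3 and 16.8 CPM at P0, again with overlap (0.43, SE 0.44, adjusted p = 0.739). The highest P0 value of each was in replicate 2, the library without Y transcripts and with 362 CPM of Ttr. Beside Lyve1, the summed level of the lymphatic endothelium list (Prox1, Flt4, Pdpn, Ccl21a, Mmrn1 and Reln) ranged from 95.1 to 162 CPM at E13.5 and from 123 to 156 CPM at P0. Over the same stages Lyve1 went from 2.89 ± 1.49 to 26.5 ± 11.6 CPM (SD, n = 3). Of the 5 tested genes of the lymphatic list, 2 had a positive and 3 a negative log2 fold change, so its sum mixes both directions. The part of lymphatic vessels in the level of Lyve1 was not tested.

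Cd68 encodes a lysosomal membrane protein of macrophages that osteoclasts carry as well. Cd68 (ENSMUSG00000018774.13, chr11:69664213-69666153, minus strand) held 8.83, 12.2 and 16.4 CPM at E15.5, 33.2, 28.0 and 45.5 CPM at E16.5, and 75.9, 36.1 and 46.6 CPM at P0. The E16.5 libraries were all above those of E15.5, and the P0 libraries overlapped those of E16.5 (log2 fold change 0.57, SE 0.28, adjusted p = 0.461). F13a1 encodes the A subunit of coagulation factor XIII, which resident macrophages make. F13a1 (ENSMUSG00000039109.16, chr13:36867178-37050244, minus strand) held 67.5, 36.4 and 50.4 CPM at E16.5 and 47.2, 52.5 and 41.9 CPM at P0, also overlapping (-0.13, SE 0.28, adjusted p = 0.893).

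C1qa, C1qb and C1qc encode the 3 chains of C1q, the recognition molecule of the classical complement pathway, and lie side by side on the minus strand of chromosome 4. C1qb (ENSMUSG00000036905.8) spans chr4:136880129-136886187, C1qc (ENSMUSG00000036896.5) chr4:136889804-136893065 and C1qa (ENSMUSG00000036887.5) chr4:136895917-136898803. The gaps between them are 3616 and 2851 bases. C1qa held 46.7, 24.9 and 29.3 CPM at E16.5 and 60.2, 42.5 and 46.1 CPM at P0. C1qb held 59.6, 34.2 and 34.1 CPM at E16.5 and 73.2, 54.3 and 59.0 CPM at P0. C1qc held 48.5, 27.2 and 30.8 CPM at E16.5 and 53.4, 42.6 and 43.8 CPM at P0. In all 3 genes E16.5 replicate 1 was the highest of its stage and reached into the P0 range. Their log2 fold changes from E16.5 to P0 were 0.56, 0.54 and 0.39 for C1qa, C1qb and C1qc (SE 0.23, 0.25 and 0.22, adjusted p = 0.369, 0.414 and 0.529). Over the 15 libraries C1qb stayed 0.33 ± 0.10 above C1qc in log2 CPM (SD, n = 15).

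The RefSeq promoter windows of C1qb, Cd68 and F13a1, the 250 bases before the start site, are shown because they share no base with counted exons of the gene. All of the other 9 genes were higher at P0 than at E13.5, so that direction does not single out these 3. Capitals mark GAGGAA, searched on both strands (TTCCTC on the other), the core motif of PU.1, the macrophage transcription factor encoded by Spi1. The windows lie at chr4:136886201-136886450, chr11:69666171-69666420 and chr13:37050245-37050494 of GRCm38.p6, all on the minus strand and each printed 5′ to 3′.
C1qb: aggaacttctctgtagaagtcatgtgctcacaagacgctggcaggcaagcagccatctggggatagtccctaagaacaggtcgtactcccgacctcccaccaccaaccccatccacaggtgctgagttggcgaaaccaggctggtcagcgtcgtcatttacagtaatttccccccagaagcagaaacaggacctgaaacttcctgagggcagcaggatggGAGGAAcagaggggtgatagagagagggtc
Cd68: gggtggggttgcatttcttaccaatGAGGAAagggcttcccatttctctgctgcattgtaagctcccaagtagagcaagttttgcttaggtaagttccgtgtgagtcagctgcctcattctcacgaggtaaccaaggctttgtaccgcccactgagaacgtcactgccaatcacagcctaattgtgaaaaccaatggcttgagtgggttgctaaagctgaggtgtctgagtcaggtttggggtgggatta
F13a1: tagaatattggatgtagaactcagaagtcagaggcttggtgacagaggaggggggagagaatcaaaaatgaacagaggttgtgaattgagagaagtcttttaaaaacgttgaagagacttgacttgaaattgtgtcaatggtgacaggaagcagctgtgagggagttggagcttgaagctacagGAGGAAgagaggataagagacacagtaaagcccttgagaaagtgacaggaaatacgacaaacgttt
Each window held 1 match, the window of C1qc 1, that of Mrc1 3, and that of Cx3cr1 0. A window at a second start site of F13a1, which overlaps counted exons and is not printed, also held 0. Of 32851 RefSeq windows of this length, 23.3% held the motif. The Cx3cr1 window lies wholly within exons that the count table assigns to Cx3cr1, whose GENCODE model starts farther upstream, and is not printed. A match is a description of these letters and not of binding.

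Between neighbouring stages the median change of the macrophage genes was largest from E14.5 to E15.5. Single genes differed, and Cd68 rose more from E15.5 to E16.5 (log2 fold change 1.51 against 1.34). Of the 10 genes, 6 passed an adjusted p of 0.05, all higher at E15.5, where 26.1% of all tested genes passed and 12.7% passed as higher. These were Csf1r (log2 fold change 0.84), Mrc1 (0.95), Cd68 (1.34), C1qa (0.85), C1qc (0.78) and F13a1 (1.41). The median over the 10 genes was 0.84, against 0.03 over all tested genes. DESeq2 called 9 of the 10, all higher. Cx3cr1 was 0.45 higher (SE 0.19, adjusted p = 0.0933 in edgeR and 0.0357 in DESeq2), and its lowest E15.5 library, 17.8 CPM, was above its highest E14.5 library, 17 CPM. All 10 genes had every E15.5 library above every E14.5 library, as did 24% of all tested genes. Leaving out E14.5 replicate 1 gave a count of 2, and leaving out replicate 2 of that stage gave 3. Without the libraries over 100 CPM of Ttr it was 0 (5 at an unadjusted p under 0.05), which leaves a single E14.5 library assumed to vary like the other stages. Cd68 and F13a1 passed in all 6 fits that left out 1 library.

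From E13.5 to E14.5 none of the 10 genes passed in edgeR or in DESeq2, where 0.00903% of all tested genes passed in edgeR, and 2 (Cx3cr1 and C1qb) had an unadjusted p under 0.05. Cx3cr1 differed by 0.46 (SE 0.19, adjusted p = 0.261). From E15.5 to E16.5 only Cd68 passed (log2 fold change 1.51, SE 0.29, adjusted p = 0.0340), where 1.41% of all tested genes passed and 1.03% passed as higher. It no longer passed when any 1 of the 6 libraries was left out. Cx3cr1 differed by -0.08 (SE 0.19, adjusted p = 0.839) over this interval, close to Adgre1 (-0.10, adjusted p = 0.824) and Mrc1 (-0.07, adjusted p = 0.893).

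**Figure D2:**
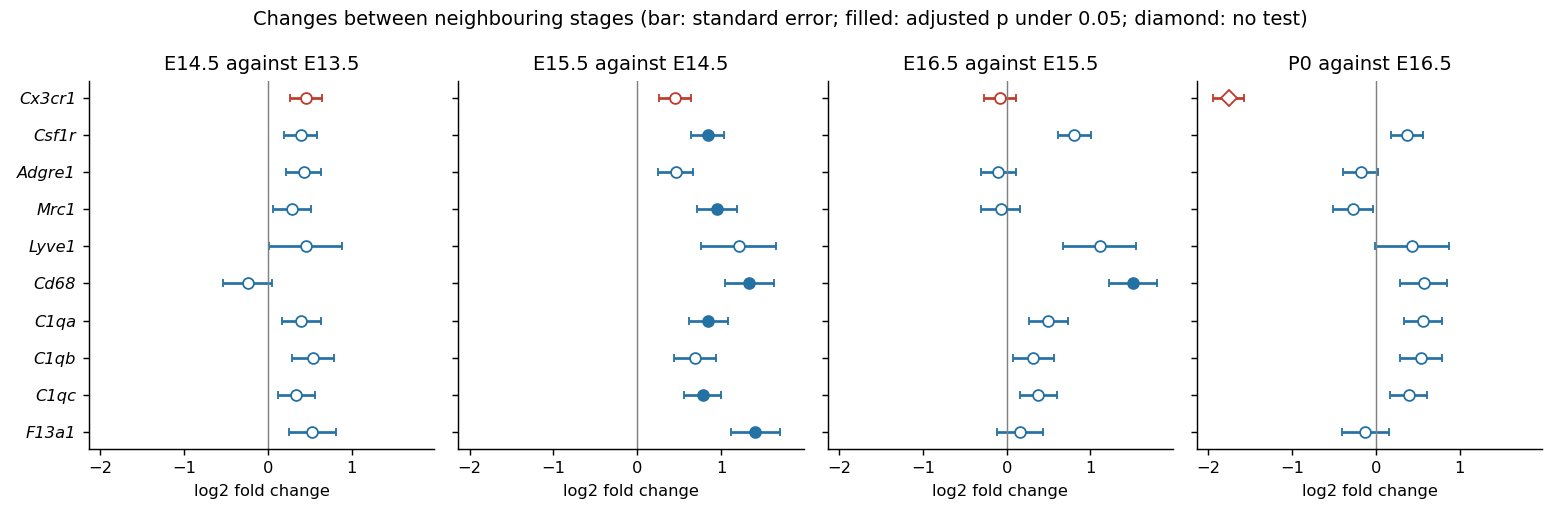
Fitted log2 fold change of each gene between neighbouring stages; bars are standard errors, filled points have an adjusted p under 0.05, and the diamond marks Cx3cr1 from E16.5 to P0, given with no test. In that panel Cx3cr1 lies at -1.76 and the other 9 genes between -0.27 and 0.57.

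Between E16.5 and P0 none of the other 9 genes passed in edgeR or in DESeq2, where 0.352% of all tested genes passed in edgeR. C1qa and C1qb had an unadjusted p under 0.05, both toward higher levels at P0. Of the 9 genes, 6 had a positive and 3 a negative log2 fold change, with a median of 0.39 against 0.00 over all tested genes. The 3 negative values were those of Adgre1, Mrc1 and F13a1, the lowest being -0.27. The library groups of all 9 genes overlapped, while those of Cx3cr1 did not. Of all tested genes 6.23% had every P0 library above, and 5.39% every P0 library below, those of E16.5. A p that misses the threshold does not show that these genes stayed level.

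Set against the mean log2 CPM of the other 9 genes in the same library, Cx3cr1 was 0.15 ± 0.24 (SD, n = 3) at E13.5 and 0.25 ± 0.13 at E14.5. The difference was -0.26 ± 0.16 at E15.5 and -0.83 ± 0.17 at E16.5. By P0 it was -2.86 ± 0.27. The 3 P0 libraries, at -2.75, -3.17 and -2.65, lay below the lowest of all earlier libraries, -0.99. Every E16.5 library was also below every E15.5 library on this scale, although the level of Cx3cr1 itself differed by only -0.08 over that interval. Toward P0 the difference moved by -2.03, and by -1.88 to -2.13 with any 1 of the 6 libraries left out.

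**Figure D3:**
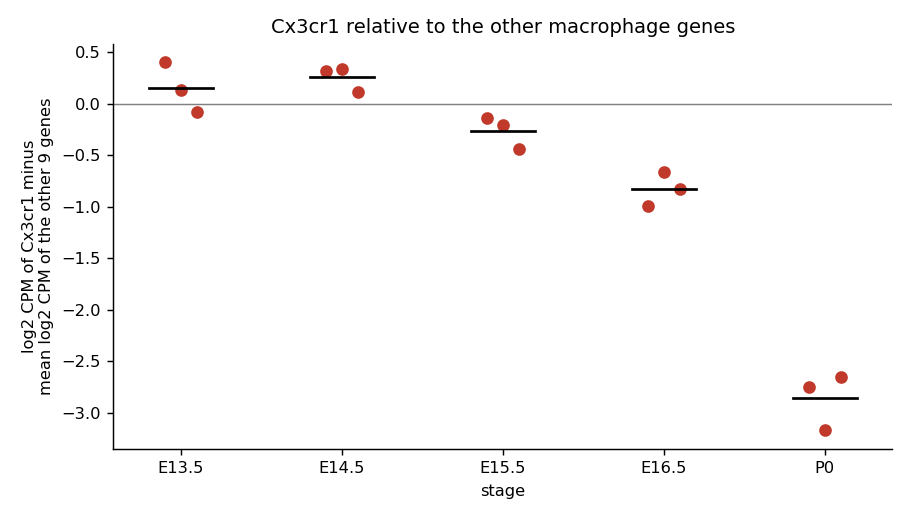
Log2 CPM of Cx3cr1 minus the mean log2 CPM of the other 9 genes in each library, by stage; points are libraries and lines are stage means (n = 3). The 3 P0 libraries sit between -3.17 and -2.65, below all libraries of the 4 embryonic stages.

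Ratios to single genes were lowest at P0 for each of the other 9. The CPM of Cx3cr1 was 0.444 ± 0.0224 times that of Csf1r at E13.5, 0.194 ± 0.0299 times at E16.5 and 0.0438 ± 0.00302 times at P0 (SD, n = 3). Against C1qb it was 0.779 ± 0.122, 0.487 ± 0.107 and 0.0932 ± 0.00738 times at the same stages. Per kilobase of exon, Cx3cr1 stood at 2.46 CPM at E13.5, above Adgre1 (2.11), Lyve1 (0.989) and F13a1 (1.78). At P0 it stood at 1.29 CPM per kilobase, below each of the other 9, of which Adgre1 was the nearest at 3.23.

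Each gene was also set against the mean of the other 9, with every profile centred on its own mean over the 15 libraries. The root mean square difference was 1.15 for Cx3cr1, 0.86 for Cd68 and 0.77 for Lyve1, and 0.17 to 0.55 for the rest. Among the 45 pairs of genes the closest were C1qb and C1qc (0.10), and the farthest were Cx3cr1 and Cd68 (1.72). The same measure placed Adgre1 (0.66) and Mrc1 (0.76) nearest to Cx3cr1 of the 9 genes. These values describe the libraries that showed the fall and are no test of it.

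Compared with E15.5, 7 of the 10 genes passed at P0, where 22.9% of all tested genes passed, 12.2% as higher and 10.8% as lower. Higher were Csf1r (1.19), Cd68 (2.08), Lyve1 (1.54), C1qa (1.06), C1qb (0.86) and C1qc (0.78), and lower was Cx3cr1 (-1.84, SE 0.19). The P0 libraries are those on which Cx3cr1 was chosen, so its own place in this count is not independent evidence. Adgre1 (-0.28, adjusted p = 0.376), Mrc1 (-0.35, adjusted p = 0.308) and F13a1 (0.04, adjusted p = 0.939) did not pass. All P0 libraries of Adgre1 (8.05 to 11.7 CPM) were still below all those of E15.5 (12.5 to 13 CPM). Like Cx3cr1, Adgre1 and Mrc1 had their highest means at E15.5, at 12.7 and 44.8 CPM. Their means were lower at E16.5 (11.9 and 42.6 CPM) and again at P0 (10.5 and 35.2 CPM). The count was 4 without any 1 of the E15.5 replicates, without P0 replicate 1, and without the libraries over 100 CPM of Ttr.

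Compared with E13.5, 9 of the 10 genes were higher at P0 and Cx3cr1 was lower (-0.93, SE 0.19), where 56.6% of all tested genes passed, 29.8% as higher and 26.8% as lower. The rises ran from 0.62 for Adgre1 (adjusted p = 0.0256) to 3.20 for Lyve1. The libraries of Adgre1 overlapped, from 5.42 to 8.07 CPM at E13.5 and from 8.05 to 11.7 CPM at P0, and it did not pass without E13.5 replicate 1 or 2 or P0 replicate 1 or 2. Over the 5 stages the other 9 genes passed the F test, as did 59.1% of all tested genes. Cx3cr1 is counted as lower at P0 from the libraries by which it was chosen, so neither that call nor its own pass of the F test is independent evidence.

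The other genes of the CSF1 receptor and fractalkine axis, a list of 11, included the ligands of both receptors. From E14.5 to E15.5, 4 of 11 rose and 1 fell, where 12.7% of all tested genes rose and 26.1% passed in either direction, with 2 passing without E14.5 replicate 1 and none without the libraries over 100 CPM of Ttr. Csf1, a ligand of Csf1r, rose by 1.00 (adjusted p = 0.00209), and Spi1, which encodes PU.1, by 1.17 (adjusted p = 0.0177). The one that fell was Cx3cl1, the fractalkine gene, by 0.66 on the log2 scale (adjusted p = 0.0229). Cx3cl1 was named as the ligand of Cx3cr1 after its values were seen, and it passed in 1 of 6 fits with a library left out. At E16.5 Cx3cl1 held 20.5, 15.7 and 13 CPM and at P0 18.4, 24.1 and 20.8 CPM. These overlapped, with a log2 fold change of 0.36 (adjusted p = 0.479). None of the 11 passed from E16.5 to P0 in edgeR or DESeq2, and 0 had an unadjusted p under 0.05.

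Of 16 other core macrophage genes, 11 rose from E14.5 to E15.5, where 12.7% of all tested genes rose, with 3 passing without E14.5 replicate 1 and 1 without the libraries over 100 CPM of Ttr. At P0 against E16.5 none passed in edgeR and 1 did in DESeq2, 5 had an unadjusted p under 0.05, and the median log2 fold change was 0.37. Lyz2, the lysozyme gene of macrophages, held 74.4, 66.6 and 61.8 CPM at E16.5 and 186, 147 and 92.1 CPM at P0. Its log2 fold change was 1.07 (adjusted p = 0.158 in edgeR and 0.0255 in DESeq2), with every P0 library above every E16.5 library. Of 12 tested genes of resident and perivascular macrophages, 7 rose from E14.5 to E15.5, against the same 12.7% (4 without E14.5 replicate 1, and 2 without the libraries over 100 CPM of Ttr). Later, between E16.5 and P0, none of these 12 passed in edgeR or DESeq2 and 0 had an unadjusted p under 0.05, with a median of 0.08.

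Among 11 genes of microglia and homeostatic macrophages, 2 were higher and 2 were lower at P0 than at E15.5, against 12.2% and 10.8% of all tested genes. The median over the list was -0.09. The 2 lower were P2ry13, a purine receptor (-1.61, adjusted p = 0.0104), and Gpr34, a lysophospholipid receptor (-1.85, adjusted p = 0.00701). P2ry13 did not pass in a fit to just the 6 libraries compared (adjusted p = 0.0695). Gpr34 was named after its values were seen. P2ry13 held 1.99, 1.02 and 1.61 CPM at E16.5 and 0.444, 0.793 and 0.261 CPM at P0, from as few as 6 counts. Its P0 libraries were all below those of E16.5, with a log2 fold change of -1.60 (adjusted p = 0.0900 in edgeR and 0.00260 in DESeq2). At P0 against E16.5 none of the 11 passed in edgeR and 1 in DESeq2, with 3 at an unadjusted p under 0.05.

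Ccr2, the chemokine receptor of monocytes, was also lower at P0. It held 3.93, 5.53 and 5.15 CPM at E15.5, 2.40, 1.88 and 1.64 CPM at E16.5, and 0.971, 0.396 and 1.13 CPM at P0. The 3 groups did not overlap. P0 differed from E15.5 by -2.55 (adjusted p = 0.00175) and from E16.5 by -1.25 (adjusted p = 0.197 in edgeR and 0.0306 in DESeq2). In the list of 8 monocyte genes 4 were higher and 2 lower at P0 than at E15.5, against 12.2% and 10.8% of all tested genes. The total passing was 3 without E15.5 replicate 2 or without the libraries over 100 CPM of Ttr. From E15.5 to P0 the mean of S100a4 went from 1.32 to 4.74 CPM and that of Plac8 from 3.4 to 23.5 CPM. The mean of Vcan went down, from 572 to 291 CPM.

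**Figure D4:**
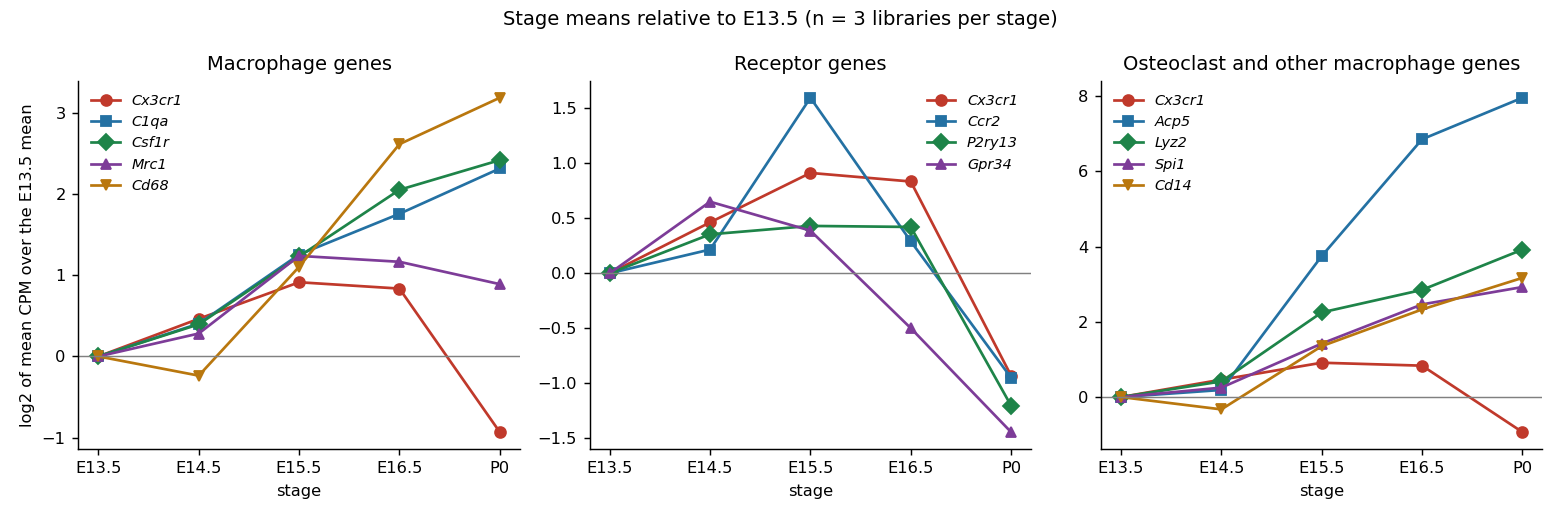
Log2 of each stage mean over the E13.5 mean (n = 3 libraries per stage) for 5 of the macrophage genes, for Cx3cr1 with 3 other receptor genes, and for Cx3cr1 with the osteoclast gene Acp5, the macrophage genes Lyz2 and Cd14 and Spi1. The genes were picked to show both patterns, and Cx3cr1, Ccr2, P2ry13 and Gpr34 have their lowest means at P0. Receptor genes did not all fall. The mean of Csf1r went from 25.1 CPM at E13.5 to 134 CPM at P0. That of P2ry12, not drawn and named after its values were seen, went from 1.55 to 2.05 CPM.

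Osteoclast genes were also at their highest summed level at P0. The summed level of 9 osteoclast genes ranged from 41.9 to 52.5 CPM at E13.5 and from 71.7 to 84.1 CPM at E14.5. It ranged from 157 to 427 CPM at E15.5, from 1224.5 to 2167.3 CPM at E16.5 and from 2228.5 to 4355.2 CPM at P0. Mean levels at E13.5 and then E14.5 were 13.7 and 39 CPM for Mmp9 and 2.31 and 8.14 CPM for Calcr. They were 3.15 and 3.59 CPM for Acp5, 24.2 and 23.6 CPM for Ctsk, and 5.82 and 4.94 CPM for Cd68. Mmp9, Calcr and Ctsk were named after their values were seen. Between these 2 stages none of the 9 passed in edgeR and 2 did in DESeq2, where 0.00903% of all tested genes passed in edgeR. From E14.5 to E15.5, 8 of the 9 rose, against 12.7% of all tested genes, and 1 passed without the libraries over 100 CPM of Ttr. From E15.5 to E16.5, 5 rose, against 1.03% of all tested genes, and 0 passed without E15.5 replicate 2 or without E16.5 replicate 1. Acp5, the tartrate-resistant acid phosphatase of osteoclasts, held 360, 262 and 473 CPM at E16.5 and 1211, 527 and 616 CPM at P0. In both Acp5 and Cd68, P0 replicate 1 was the highest library. The part of osteoclasts in the levels of Cd68 and Csf1r was not tested.

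Immediate early genes, which respond within minutes to handling of tissue, also differed between P0 and E16.5. Of 8, 5 were higher at P0, where 0.352% of all tested genes passed, with a median log2 fold change of 1.35. Only 1 passed without E16.5 replicate 2, without E16.5 replicate 3, or without the libraries over 100 CPM of Ttr. Their summed level ranged from 208 to 249 CPM at E16.5 and from 391 to 727 CPM at P0. Their part in the level of Cx3cr1 at P0 was not tested.

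The genes whose profile over the 15 libraries was most like that of Cx3cr1 were not macrophage markers. Among 16518 genes ranked by the root mean square difference of centred log2 CPM, the closest were Gja5 (0.37), which encodes the gap junction protein connexin 40, Snora57 (0.37), a small nucleolar RNA, Zfp853 (0.39), Gm10069 (0.40) and Ak4 (0.41), a mitochondrial adenylate kinase. Gja5 went from 22.5 ± 4.81 CPM at E16.5 to 10.2 ± 3.29 CPM at P0 and Ak4 from 21.1 ± 2.64 to 10.3 ± 1.46 CPM (SD, n = 3). Of the other 9 macrophage genes Adgre1 ranked 1271 and Mrc1 5828, and the remaining 7 ranked between 13164 and 15326.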

How the data were processed

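The deposited table holds raw counts per gene, made by the authors with featureCounts 2.0.1. Read pairs were counted as reverse-stranded on the genes of GENCODE M18, per the file headers. The submitters' processing notes name mm10, HISAT2 2.2.1, Bowtie2, cutadapt 3.4 and SAMtools 1.12 with no role. Duplicates are named as marked in the input. Symbols came from GENCODE M21.

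Counts were filtered with filterByExpr (minimum count 10), TMM-normalized and modelled with 1 mean for each of the 5 stages in edgeR 4.0.16 under R 4.3.3, using all 15 libraries. Quasi-likelihood F tests covered 6 contrasts and the 5 stages, with Benjamini-Hochberg adjustment over 22151 genes and a threshold of 0.05. Log2 CPM used a prior count of 2. The procedure was tested on simulated data.

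The 10 genes and the 17 other lists were chosen with earlier results of these data known. All 10 genes were named. Of each list, genes were named from the 4 with the largest change at P0 or E15.5 and a mean of at least 1 CPM, except where stated. Not all of these 4 are named, so a list can hold larger changes than those shown. Likeness was ranked among tested genes with a mean of at least 1 CPM.

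Alternatives were DESeq2 1.42.0, its size factors, upper-quartile normalization, no filter, a mean of at least 1 CPM, a prior count of 0.5, the median of the other 9 genes, a fit to just the 6 libraries compared, a block for replicate number, and each library left out. Leaving out the libraries over 100 CPM of Ttr was chosen after seeing the data. Promoters are from RefSeq (GRCm38.p6), which gave a window for 6 of the 9 genes searched; those of Adgre1, Lyve1 and C1qa are named only. Some results of the lists are not reported here.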

Additional observations from a re-analysis of the deposited data

How the results depend on the processing

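The count of changed genes was 0 from E13.5 to E14.5 and 0 of the other 9 from E16.5 to P0 under each alternative run. It was 10 from E13.5 to P0 and 10 over the 5 stages, and 9 to 10 under the alternatives of both. From E14.5 to E15.5 it was 6, with 9 in DESeq2, 2 to 8 when a library was left out and 0 without the libraries over 100 CPM of Ttr. From E15.5 to E16.5 it was 1, with 2 in DESeq2, 0 from only the 6 libraries, 0 for each library left out and 0 without the libraries over 100 CPM of Ttr. From E15.5 to P0 it was 7, with 4 to 7 when a library was left out and 4 without the libraries over 100 CPM of Ttr. The cause of these differences was not tested, and fits with libraries left out also hold fewer samples. The move of Cx3cr1 against the other 9 genes, -2.03, stayed between -2.14 and -1.88. Small single-gene differences changed sign when a library was left out. From E13.5 to E14.5 Lyve1 ranged from -0.03 to 0.88. From E15.5 to E16.5 Adgre1 ranged from -0.22 to 0.05, Mrc1 from -0.24 to 0.08, C1qb from -0.02 to 0.46 and F13a1 from -0.09 to 0.36. F13a1 ranged from -0.33 to 0.12 from E16.5 to P0 and from -0.07 to 0.12 from E15.5 to P0, where it was -0.01 with no filter. Of the other single-gene results under alternatives, 718 kept direction and side of the threshold, 40 no longer passed and 13 newly passed.

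The labels do not say whether replicate numbers pair the libraries, and the correlations below do not settle it. Same-numbered libraries of different stages had a mean correlation of deviations of 0.0594 (-0.303 to 0.548), with 9 of 30 over 0.1. The mean was -0.0322 for libraries of different numbers, and 7 of 15 libraries correlated best with their own number. With the replicate number as a block the counts were 0, 7, 1 and 0 between neighbouring stages, 7 from E15.5 to P0 and 10 from E13.5 to P0. With 3 pools per stage, differences of the size seen in most of the other 9 genes between E16.5 and P0 did not pass.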

Other observations

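Marker lists of other blood cells differed in direction between P0 and E13.5, where 29.8% of all tested genes were higher and 26.8% lower. Of 9 tested neutrophil genes 7 were higher (5 without E13.5 replicate 2), with a median log2 fold change of 2.49, and their summed level went from 4.65 to 11.4 CPM at E13.5 to 106 to 277 CPM at P0. Ltf, the lactoferrin gene, held 139, 243 and 75.5 CPM of the P0 sums, more than the rest of the list together. Of 6 mast cell genes 5 were higher, with a median of 4.79, and the sum of all 6 went from 44.3 to 51.9 CPM to 149 to 267 CPM. Kit, named after its values were seen, held 48, 47.5 and 38.1 CPM of the E13.5 sums, more than the rest together. At P0 Kit held 43.2, 50 and 56.3 CPM. Genes of lymphoid cells stayed low, with a sum of 0.733 to 0.906 CPM at E13.5 and 2.39 to 3.22 CPM at P0, and 3 of 5 tested genes were higher. Of 8 tested dendritic and Langerhans cell genes 4 were higher and 1 lower, and Xcr1, a receptor of a dendritic cell subset, had 0 counts in all 15 libraries. Of 8 monocyte genes 5 were higher and 2 lower, and of 7 erythroid genes 0 were higher and 1 lower, with a median of -0.28. These lists were set beside Cx3cr1 as values, and their part in its level at P0 was not tested.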
